A study of Mus musculus with 2 samples.

Results

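The 8 genes Egr1, Egr2, Egr3, Nr4a1, Nr4a2, Nr4a3, Nab2 and Cd5, which T cells switch on when their antigen receptor is engaged, were followed in single γδ T cells of mouse liver and thymus. These members were chosen by name, as readouts of receptor signal strength, from the 27998 genes listed. The cells were primary γδ T lymphocytes of wild type, untreated C57BL/6J mice aged 8 weeks, and each tissue was represented by 1 library made with the 10x Genomics 3′ kit, version 2. Mononuclear cells of both tissues were stained for CD3e and TCRγ/δ and sorted, whereas magnetic beads against CD4 and CD8 were used to deplete the thymic suspension only; the sources used here do not say how the mice were divided between the libraries. With 1 library per tissue no test between the tissues was possible, so every level is given as unique molecular identifiers (UMIs) of a gene per 1000000 UMIs summed over a group of cells (CPM), with 95% intervals that cover counting error only, and tissue, pool of mice, cell preparation and library cannot be told apart.

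Receptor engagement activates the ERK kinases, calcium and NFAT signalling and NF-κB, and the Egr and Nr4a genes respond to these within minutes to hours without new protein synthesis. EGR1, EGR2 and EGR3 are zinc finger factors, and NAB2, whose gene is itself an Egr target, binds them and limits their activity. NR4A1 (Nur77), NR4A2 (Nurr1) and NR4A3 (Nor1) are orphan nuclear receptors; Nr4a1 is widely used as a reporter of recent receptor signals in thymocytes and peripheral T cells. CD5 is a surface protein of the scavenger receptor family that restrains receptor signalling, and its amount is tuned during thymic selection to the strength of the signal received, so that it serves as a slower and more lasting mark. In developing γδ T cells, strong receptor signals act through ERK, Egr and Id3 and favour interferon-γ producing cells, whereas IL-17 producing cells arise under weaker signals. Egr1, the Nr4a genes, Fos and Jun also respond to cell isolation, since tissue dissociation, warming and shear stress activate the same kinases.

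The promoter windows of the Nr4a genes, Egr2 and Cd5 are shown because the first 4 genes are rapid responders and Cd5 is the slower comparator. They are RefSeq windows of the mouse GRCm38.p6 assembly that run from 250 bases before the annotated start to 50 after it, read on the strand of the gene. Capitals mark the core of the cAMP response element, TGACG or its complement CGTCA, together with an Egr site on Nr4a1 (CGCCCCCGC) and a CArG box, the serum response element, on Egr2 (CCATATATGG).
Nr4a1, chr15:101266596-101266895, plus strand: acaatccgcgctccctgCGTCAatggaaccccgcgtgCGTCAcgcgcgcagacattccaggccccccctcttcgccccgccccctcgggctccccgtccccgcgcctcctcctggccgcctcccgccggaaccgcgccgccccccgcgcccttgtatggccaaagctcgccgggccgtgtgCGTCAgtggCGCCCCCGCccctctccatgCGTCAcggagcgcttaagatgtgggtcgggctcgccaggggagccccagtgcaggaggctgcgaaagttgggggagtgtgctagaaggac
Nr4a2, chr2:57123954-57124253, minus strand: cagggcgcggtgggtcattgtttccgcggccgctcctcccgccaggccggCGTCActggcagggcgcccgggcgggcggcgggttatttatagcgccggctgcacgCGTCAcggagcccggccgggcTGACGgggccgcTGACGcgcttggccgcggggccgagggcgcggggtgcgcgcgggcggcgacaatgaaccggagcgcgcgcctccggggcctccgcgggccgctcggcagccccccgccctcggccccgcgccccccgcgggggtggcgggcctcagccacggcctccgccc
Nr4a3, chr4:48045055-48045354, plus strand: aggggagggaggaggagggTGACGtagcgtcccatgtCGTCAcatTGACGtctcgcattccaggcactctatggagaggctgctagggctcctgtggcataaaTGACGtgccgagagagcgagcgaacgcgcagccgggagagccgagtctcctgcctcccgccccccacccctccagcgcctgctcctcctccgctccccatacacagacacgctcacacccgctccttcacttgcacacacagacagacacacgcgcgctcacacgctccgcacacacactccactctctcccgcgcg
Egr2, chr10:67537619-67537918, plus strand: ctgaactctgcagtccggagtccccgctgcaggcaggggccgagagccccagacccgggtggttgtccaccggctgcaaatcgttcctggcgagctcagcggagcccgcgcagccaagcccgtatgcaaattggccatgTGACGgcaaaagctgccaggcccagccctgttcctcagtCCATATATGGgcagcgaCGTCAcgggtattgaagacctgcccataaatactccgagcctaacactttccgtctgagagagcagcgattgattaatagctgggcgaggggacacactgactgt
Cd5, chr19:10738925-10739224, minus strand: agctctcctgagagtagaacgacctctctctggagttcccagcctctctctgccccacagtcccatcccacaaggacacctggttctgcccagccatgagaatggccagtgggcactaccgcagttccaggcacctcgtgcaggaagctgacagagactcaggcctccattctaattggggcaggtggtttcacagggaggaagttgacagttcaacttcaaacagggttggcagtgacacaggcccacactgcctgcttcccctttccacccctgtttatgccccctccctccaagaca

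Each of the 3 Nr4a windows held 4 copies of the TGACG core, counting both strands. Among all 32851 windows of 300 bases, which include overlapping windows of genes with several starts, 20.8% held at least 1 core and 0.231% held at least 4. The Egr2 window held 2 cores, and its CArG box began 72 bases upstream of the start; 1.63% of all windows held a CArG box. Egr2 had several annotated starts, and of its 3 overlapping windows with a CArG box and both cores the first is shown. The Egr site on Nr4a1, searched as GCGGGGGCG, began 60 bases upstream and was found in 2.91% of windows. The search also covered the full cAMP response element (TGACGTCA, in 1.79% of windows), the AP-1 site (TGACTCA, 5.2%), the other Egr site (GCGTGGGCG, 0.612%) and the monomer site of the NR4A proteins (AAAGGTCA, 1.51%), and none of the searched letters were in the windows of Cd5 and Nab2. Windows of 6 of the 8 members were matched, and those of Egr1 and Egr3 were not. The RefSeq loci were chr15:101253902-101274795 for Nr4a1, chr2:57106830-57124003 for Nr4a2, chr4:48045078-48086447 for Nr4a3, chr10:67534469-67542188 for Egr2, chr14:70077317-70082613 for Egr3, chr10:127660918-127666703 for Nab2 and chr19:10718107-10739026 for Cd5.

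Cells with 800 to 4000 detected genes and at most 6% mitochondrial UMIs were kept, which left 8075 of 8658 hepatic and 4351 of 4541 thymic barcodes, more than the number of cells the study states it analysed. A kept cell had a median of 2741 UMIs in the hepatic library and 3271 in the thymic library. Both libraries held 60 barcodes in common, 56 of them among the kept cells, and leaving these cells out moved none of the member levels or ratios beyond its counting interval. Joint clustering with the members, the pathway genes and the handling genes left out gave 12 clusters, which were named from fixed markers after the classes of the study. Thymic cells fell into a pair of C1-like clusters of immature cells (cluster 3, led by Slc35d1, Tnfsf11 and Sdc4, 1247 cells; cluster 4, led by Igfbp4, Tox2 and Etv5, 1174 cells), an unnamed cluster 5 led by S1pr1, Tsc22d1, Hba-a1, Cd200 and Ccr7 (1013 cells), cycling cells (534), C3-like cells (196) and C6-like cells of the IL-17 type (165). Cluster 5 was nearest to the transitional C2 class, but 3 hemoglobin genes among its leading genes and a narrow lead over the erythroid markers kept it from that name. Hepatic cells were C5-like (2948, led by Ccl4 and Klra5), C4-like (2677, Socs2 and Cd40lg), C3-like (1081, Ly6c2 and Dapl1), C6-like (790, Il17a), C7-like (278, Klra7 and Klra6), C8-like with myeloid transcripts (108, Lyz2 and Apoe), an interferon response cluster (70), cluster 5 (57) and cycling cells (49). Summed Cd3d, Cd3e and Cd3g stood at 2340 to 4867 CPM in all of these groups except the C8-like cells, where it was 958 CPM.

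Over all cells, Nr4a2 was higher in the hepatic library and most of the other members lower. Nr4a2 stood at 197 CPM (191 to 202) in the hepatic and 56.6 CPM (53.1 to 60.3) in the thymic library, 3.47-fold higher in the liver, while Nr4a1 was lower there, at 215 CPM (209 to 221) against 352 CPM (343 to 361). Egr1 was also somewhat lower in the hepatic library, at 92.3 CPM (88.5 to 96.2) against 122 CPM (117 to 128). So the family members did not shift together: Nr4a2 and Nab2 were on the hepatic side, and Nr4a1, Nr4a3, Egr1, Egr2 and Cd5 on the thymic side. Nab2 stood at 34.2 against 18.3 CPM, Nr4a3 at 28.1 against 37.7 CPM, and Cd5 at 17.3 against 32.3 CPM. Egr2 was scarce, with 78 hepatic and 131 thymic UMIs (3.23 and 7.68 CPM, a log2 ratio of -1.25 with an interval of -1.67 to -0.83), and Egr3 was close to undetected, with 2 and 4 UMIs.

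With each cell thinned to 1500 UMIs, 21.9% of hepatic and 39.6% of thymic cells held an Nr4a1 UMI, and without thinning 34.2% and 62.9% did. The corresponding thinned shares for Nr4a2 were 22.9% and 8.56% (36.0% and 17.0% unthinned). Cd5 was found in 2.40% and 4.14% of thinned cells, against 4.79% and 10.6% of the cells at full depth, so thinning missed many cells with a Cd5 UMI and these shares depend on depth. A gene was called higher or lower where its level differed at least 2-fold after 10 CPM were added to both sides, for genes whose UMIs in the compared groups added up to 50 or more. Of the 7 members that reached 50 UMIs, Nr4a2 was called higher in the hepatic cells and none lower, against 4.51% of all genes called higher and 4.37% called lower.

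**Figure D1:**
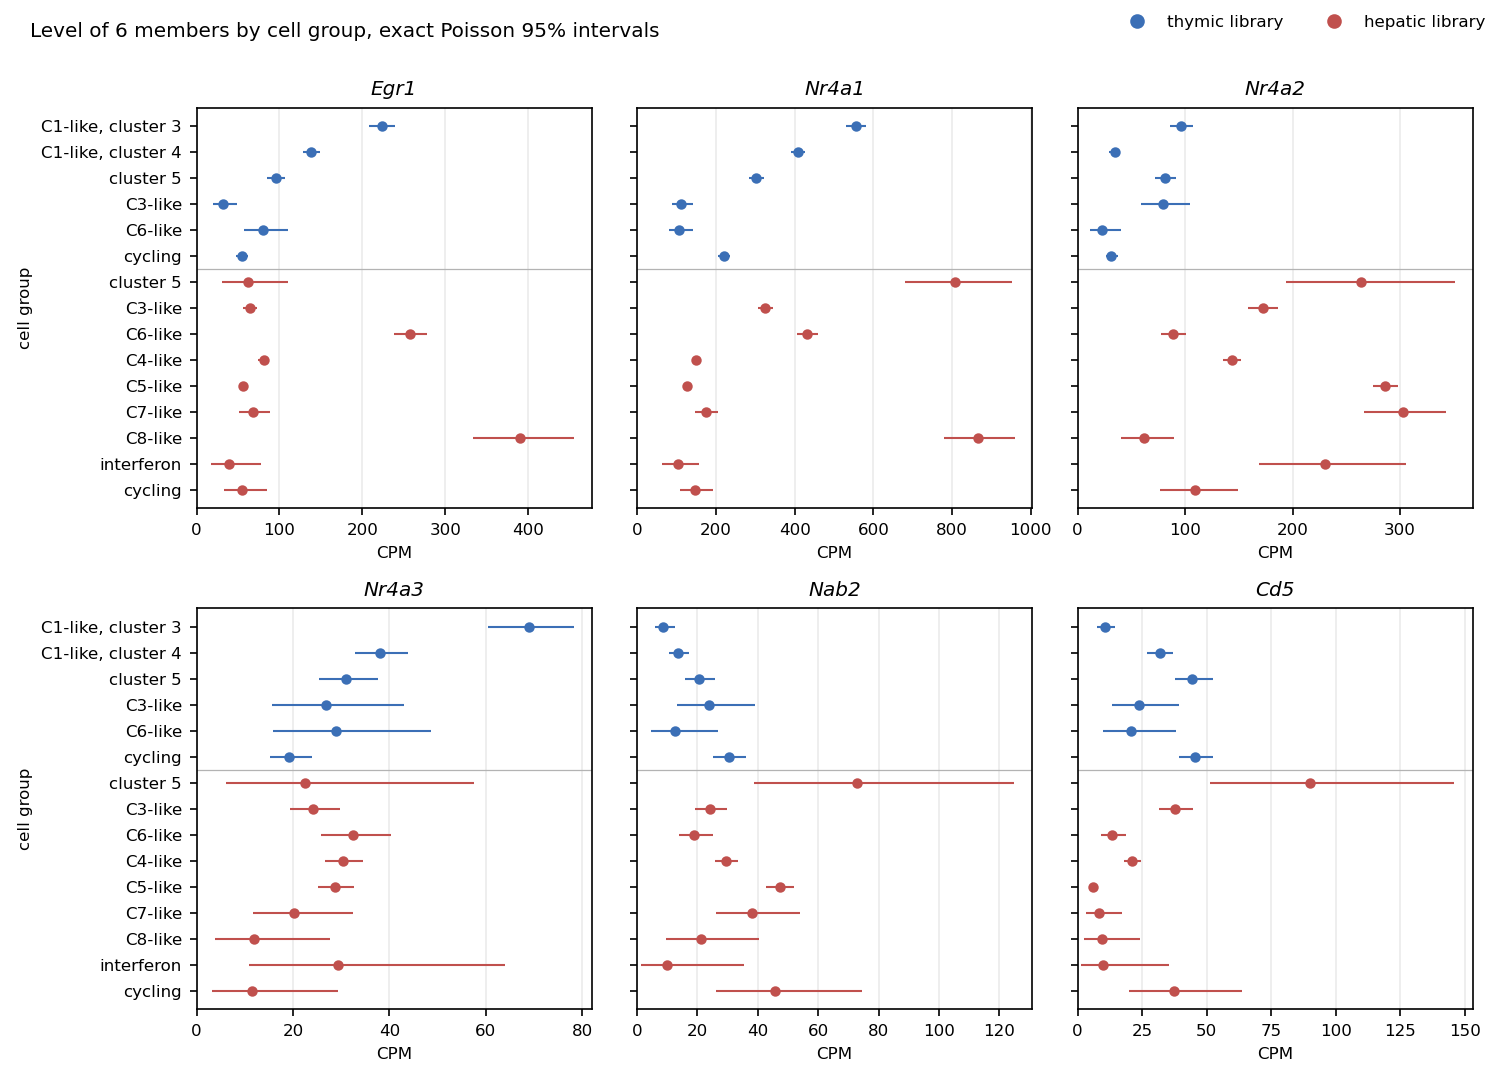
Levels of Egr1, Nr4a1, Nr4a2, Nr4a3, Nab2 and Cd5, in CPM with exact Poisson 95% intervals, in each tissue and cluster (thymic blue, hepatic red). Nr4a1 is highest in the C8-like cells and in hepatic cluster 5, Nr4a2 in the hepatic C7-like and C5-like cells, and Cd5 in hepatic cluster 5.

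Along the thymic stages, Egr1, Nr4a1 and Nr4a3 were highest in the immature C1-like cells and lower in each of the other groups, while Cd5 and Nab2 took another course. Nr4a1 stood at 555 CPM (530 to 580) in C1-like cluster 3, 408 CPM (391 to 426) in C1-like cluster 4, 303 CPM (285 to 323) in cluster 5, 220 CPM (206 to 235) in cycling cells, 112 CPM (87.6 to 141) in C3-like and 107 CPM (80.2 to 141) in C6-like cells. Neighbours in this order were separated by their intervals, apart from the C3-like and C6-like cells. Egr1 ran in the same order at the top, with 223, 139 and 95.6 CPM in clusters 3, 4 and 5, but its lowest level was in C3-like cells, 31.6 CPM (19.3 to 48.8), below the 80.5 CPM (57.3 to 110) of C6-like cells. Egr2 ran from 11.3 CPM in cluster 3 to 1 UMI in C3-like and none in C6-like cells, where a count of 0 allows up to 7.62 CPM. Nr4a3 ranged from 68.8 CPM in cluster 3 to 19.2 CPM in cycling cells, and clusters 4 and 5 (38.0 and 31.0 CPM) did not differ beyond their intervals.

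Cd5 was low where Nr4a1 was highest. It stood at 10.5 CPM (7.32 to 14.5) in cluster 3, 31.7 CPM (27.0 to 37.0) in cluster 4, 44.4 CPM (37.5 to 52.3) in cluster 5 and 45.4 CPM (39.1 to 52.4) in cycling cells, then 23.7 CPM in C3-like and 20.7 CPM in C6-like cells, whose 15 and 10 UMIs left wide intervals. Nab2 was lowest in the same place, at 8.71 CPM in cluster 3, and reached 30.3 CPM in cycling cells. Nr4a2 had no single direction, with 96.1 CPM in cluster 3, 34.3 CPM in cluster 4, 81.6 CPM in cluster 5 and 79.0 CPM in C3-like cells.

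The step from C1-like cells to cluster 5 therefore split the members. On the log2 scale, Egr1 was lower by 0.85 (interval of the log2 ratio -1.03 to -0.68), Nr4a1 by 0.62 and Nr4a3 by 0.70, whereas Cd5 was higher by 0.94 (0.62 to 1.26), Nab2 by 0.81 and Nr4a2 by 0.46. None of 7 members reached the 2-fold call, against 1.48% of all genes called higher and 1.16% called lower. Some other genes of the pathway, those with the largest ratios of each list, moved further over this step. Of 17 measured genes that restrain receptor signalling, 3 were called higher and 1 lower, with the largest ratios for Ubash3b, a phosphatase that acts on ZAP70 (51.4 against 6.0 CPM), Cd200 (84.3 against 16.1 CPM) and the diacylglycerol kinase gene Dgka (85.8 against 34.0 CPM). Of 11 NFAT and NF-κB targets, 2 were called higher, and Tnfrsf9, the costimulatory receptor 4-1BB, stood at 72.4 against 4.9 CPM. Among the ERK feedback genes and targets, 1 of 11 was called higher and 1 lower: Spry2, an inhibitor of ERK signalling, at 173 against 74.4 CPM, and Etv5, an ETS factor, at 39.6 against 226 CPM. The lists as a whole moved less. Their median log2 ratios were 0.45 for the restraint genes, 0.29 for the NFAT and NF-κB targets and -0.06 for the ERK genes, against 0.02 over all genes. Cd200 was also a C2 marker and a leading gene of cluster 5, and Etv5 was a leading gene of C1-like cluster 4. Summed immediate-early handling genes were close, at 3766 and 3558 CPM.

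Between C1-like and C3-like thymic cells the difference was larger, though the thymic C3-like cells carried the C3 markers at 1796 CPM in sum, against 2320 CPM in cluster 5 and 4436 CPM in hepatic C3-like cells. They also held the C5 markers at 1316 CPM, and with the thymus clustered alone no cluster was C3-like, whereas a cluster of 178 cells, led by Xcl1, Ly6c2 and Ccl5, was C5-like. Egr1 was lower in C3-like cells by 2.45 on the log2 scale (interval of the ratio -3.17 to -1.82) and Nr4a1 by 2.06 (-2.42 to -1.72), and these 2 of 7 members were called lower, against 6.64% of all genes; none was called higher, against 3.2%. Cd5 differed by 0.04 (-0.83 to 0.79), an interval that leaves room for a change of nearly 2-fold either way. Nab2 was higher by 1.03 (0.14 to 1.82) without reaching the call. Several NFAT and NF-κB targets went the other way from Egr1 and Nr4a1: 5 of 11 were called higher and none lower, with a median log2 ratio of 0.76 against -0.19 over all genes, among them Xcl1, a chemokine of activated lymphocytes (924 against 2.8 CPM), Bhlhe40 (201 against 5.3 CPM) and the costimulator gene Icos (175 against 33.8 CPM). Of 18 genes of the receptor complex and proximal kinases, 4 were called lower and 1 higher, with Rasgrp1, which links the receptor to RAS and ERK, at 41.1 against 456 CPM and Cd247, the ζ chain, at 164 against 632 CPM. Of the 10 ERK feedback genes and targets measured, Etv5 and Id3 were called lower and Spry2 higher. Immediate-early handling genes summed higher in C3-like cells, 7604 against 3558 CPM, with 7 of 13 genes called higher. The part of handling in the Egr1 and Nr4a1 differences was not tested.

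The pair of C1-like clusters differed in the same opposed way, a comparison added after the values were seen. Relative to cluster 4, cluster 3 held more Egr1 (log2 ratio 0.69, 0.54 to 0.84), Nr4a1 (0.44, 0.35 to 0.53), Nr4a3 (0.86, 0.58 to 1.14) and Nr4a2 (1.49, 1.22 to 1.76), and less Cd5 (-1.60, -2.17 to -1.07). Cells of cluster 3 were also shallower, with a median of 2647 against 4135 UMIs, and their summed immediate-early genes were higher, 4877 against 2662 CPM, with Fos at 556 against 235 CPM and Junb at 1975 against 971 CPM; the part of handling in this difference was not tested.

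In the liver, the members marked different cells. Nr4a1 was highest in C8-like cells and cluster 5 and high in C6-like cells, Egr1 in C8-like and C6-like cells, Nr4a2 in the cytotoxic C5-like and C7-like cells, and Cd5 in cluster 5 and C3-like cells. Nr4a1 stood at 808 CPM (682 to 952) in cluster 5, 433 CPM (407 to 459) in C6-like, 325 CPM (306 to 344) in C3-like, 175 CPM (148 to 206) in C7-like, 150 CPM (141 to 159) in C4-like and 126 CPM (118 to 134) in C5-like cells. Nr4a2 had another order, with 303 CPM (267 to 342) in C7-like, 286 CPM (275 to 298) in C5-like, 264 CPM (194 to 351) in cluster 5, 172 CPM (159 to 186) in C3-like, 143 CPM (135 to 152) in C4-like and 88.7 CPM (77.4 to 101) in C6-like cells. The C7-like, C5-like and cluster 5 levels were not separated by their intervals, and cluster 5 was high in both genes.

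Egr1 reached 257 CPM (238 to 278) in C6-like cells, and the next named T cell class, C4-like, held 80.8 CPM (74.6 to 87.4). C7-like, C3-like and C5-like cells followed at 68.0, 64.2 and 55.8 CPM. Nab2 went with Nr4a2 rather than with Egr1, at 47.2 CPM (42.7 to 52.1) in C5-like and 38.1 CPM (26.1 to 53.9) in C7-like cells against 18.9 CPM (13.9 to 25.1) in C6-like cells. Nr4a3 was flat, between 20.3 and 32.5 CPM in the classes C3-like to C7-like. Egr2 held no more than 5.62 CPM in any of those classes.

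Cd5 stood at 37.6 CPM (31.5 to 44.5) in C3-like, 21.0 CPM (17.8 to 24.4) in C4-like and 13.2 CPM (9.12 to 18.6) in C6-like cells. In C5-like and C7-like cells it was 5.85 CPM (4.33 to 7.74) and 8.35 CPM (3.36 to 17.2). Myeloid cells lack Cd5, and the C8-like cells still gave 4 UMIs, 9.46 CPM (2.58 to 24.2), with a UMI in 1.85% of thinned cells (2.78% unthinned) at a median of 3118 UMIs per cell. The thinned shares of C5-like and C7-like cells, 0.882% and 0.722% (1.63% and 2.52% unthinned, at medians of 2700 and 2798 UMIs), were not above that, so no Cd5 expression was read from them. The thinned share of C6-like cells, 1.39% (3.92% unthinned), was also not above that of the C8-like cells. The Cd5 level of C6-like cells was therefore not clearly set apart from background. The comparison is limited, since the C8-like share rests on few UMIs and those cells also held CD3 transcripts. The small cluster 5 carried the highest Cd5, 89.8 CPM (51.3 to 146), together with Nr4a1 at 808 CPM and Nab2 at 73.0 CPM, but these rest on 57 cells and on 16, 144 and 13 UMIs. In thymic cells of the same cluster Nr4a1 was 303 CPM and Cd5 44.4 CPM.

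C8-like cells carried Lyz2, Ifitm3, Apoe and Cd74 at 35637 CPM in sum beside their low CD3 transcripts, and Egr1 and Nr4a1 are known to be inducible in macrophages too. Nr4a1 there stood at 866 CPM (779 to 959), Egr1 at 390 CPM (333 to 454) and Egr2 at 26.0 CPM (13.0 to 46.5, 11 UMIs). Egr1 was found in 36 of these 108 cells and Nr4a1 in 93. The UMIs of both were concentrated: 12 cells with at least 5 Egr1 UMIs each held 66.7% of them, and 31 such cells held 63.7% for Nr4a1.

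C4-like and C5-like cells, which made up most of the hepatic library, differed least in Nr4a3 and Nr4a1 and most in Cd5 and Nr4a2 among the 6 members with at least 50 UMIs. Cd5 was higher in C4-like cells, with a log2 ratio of 1.84 (1.37 to 2.33) that became 0.97 after 10 CPM were added. Nr4a2 was lower by 1.00 (interval of the ratio -1.10 to -0.90) and Nab2 by 0.68, while Egr1 was higher by 0.53 (0.36 to 0.71) and Nr4a1 by 0.25 (0.13 to 0.37). None of 6 members was called, against 0.907% of all genes called higher and 0.952% called lower, and Cd5 and Nr4a2 lay just under the threshold, which each of them passed under some other settings. Of the restraint genes 1 of 17 was called higher and 2 lower; Cd6, a close relative of Cd5, stood at 44.4 against 6.0 CPM, Lag3 at 11.2 against 121 CPM and Ptpn6, which encodes SHP-1, at 80.4 against 173 CPM. Of 14 NFAT and NF-κB targets, 2 were called higher and 2 lower, with Icos at 118 against 12.1 CPM, Tnfrsf9 at 16.9 against 74.0 CPM and Xcl1 at 1336 against 3579 CPM. Among the receptor genes 2 of 18 were called higher, Cd28 at 700 against 85.9 CPM and Themis, a thymocyte signalling adaptor, at 29.8 against 5.1 CPM. Cd28 was among the markers used to name the C4-like cells, so its difference was partly set by the naming. Of 10 ERK feedback genes and targets, Id3 was called lower, at 15.4 against 43.6 CPM. Summed immediate-early genes were 22996 and 22012 CPM.

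C3-like and C6-like cells were present in both libraries, and within them the direction of Egr1 and Nr4a1 was the opposite of that over all cells. The C3-like cells of the libraries were not alike, however. Their C3 markers summed to 4436 CPM in the liver and 1796 CPM in the thymus. At resolution 0.8, 110 of the 196 thymic cells fell into another cluster, so cell type and tissue are not separated in this comparison. In C3-like cells Nr4a1 stood at 325 CPM (306 to 344) in the liver and 112 CPM (87.6 to 141) in the thymus, a log2 ratio of 1.53 (1.19 to 1.90). Egr1 stood at 64.2 against 31.6 CPM (1.02, 0.36 to 1.76) and Nr4a2 at 172 against 79.0 CPM (1.12, 0.71 to 1.57). In the thymic library 2421 of 4351 cells were C1-like, with Nr4a1 at 467 CPM (453 to 482). Nr4a3 (24.1 against 26.9 CPM) and Nab2 (24.1 against 23.7 CPM) did not differ beyond counting error, with log2 ratios of -0.16 (-0.92 to 0.69) and 0.03 (-0.78 to 0.92). Cd5 stood at 37.6 against 23.7 CPM, and its interval included 0 (0.67, -0.11 to 1.54). Nr4a1 and Nr4a2 were called higher of 6 members, against 1.95% of all genes, and none lower, against 1.44%; with 50 CPM added in place of 10, Nr4a1 alone was called.

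C6-like cells showed the larger shift. Egr1 stood at 257 CPM in the liver and 80.5 CPM in the thymus (log2 ratio 1.68, 1.21 to 2.18), Nr4a1 at 433 against 107 CPM (2.01, 1.61 to 2.44) and Nr4a2 at 88.7 against 22.7 CPM (1.96, 1.10 to 2.99). These 3 of 5 members were called higher, against 3.31% of all genes, and none lower, against 0.785%. Nr4a3 (0.17, -0.66 to 1.10) and Nab2 (0.61, -0.62 to 2.12) had intervals around 0. Cd5 was at 13.2 against 20.7 CPM, with 33 and 10 UMIs and a log2 ratio of -0.64 (-1.70 to 0.54), the upper bound of which lies under the lower bounds of Egr1, Nr4a1 and Nr4a2. After thinning, the Cd5 share of hepatic C6-like cells was not above that of the C8-like cells, so this ratio may rest partly on background.

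**Figure D2:**
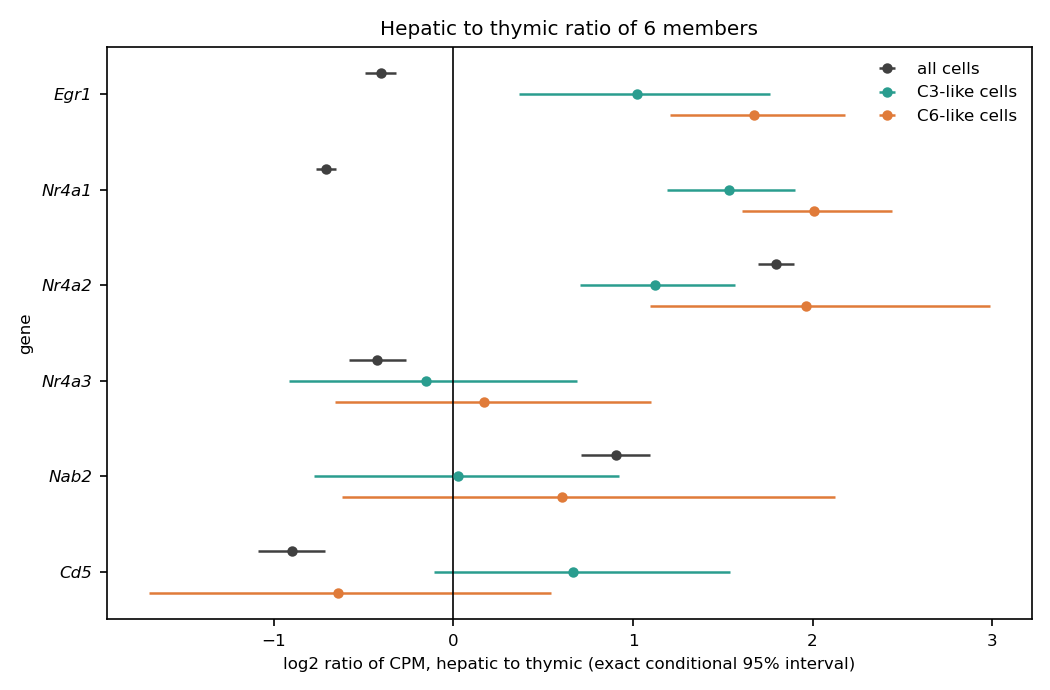
Hepatic to thymic log2 ratio of 6 members, over all cells, C3-like cells and C6-like cells, with exact 95% intervals for counting error. Nr4a1 and Egr1 lie below 0 over all cells and above 0 within both classes, Nr4a2 lies above 0 in all 3, and the intervals of Cd5 cross 0 within both classes. Thymic C3-like cells carried less of the C3 markers than hepatic C3-like cells.

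Handling genes were also higher in the hepatic cells of both classes. The immediate-early genes summed to 14708 CPM in hepatic and 7604 CPM in thymic C3-like cells, with 6 of 13 called higher, and to 23685 against 10116 CPM in C6-like cells, with 9 of 13. Heat shock genes summed to 8293 against 4233 CPM and 8219 against 4005 CPM, with 5 of 10 called higher in each class. Over all cells the gap was wider, at 20737 against 3536 CPM for the immediate-early genes, of which 13 of 13 were called higher, and at 10943 against 4609 CPM for the heat shock genes. Hspa1a, an inducible heat shock gene, stood at 1942 CPM in hepatic and 4.1 CPM in thymic cells, and in the thymus it was found in 4 of 196 C3-like and 7 of 165 C6-like cells, in 2 of 1174 cells of cluster 4, in 1 of 1013 cells of cluster 5 and in no cell of cluster 3. Within both classes the handling genes thus differed in the same direction as Egr1, Nr4a1 and Nr4a2, and their part in those differences was not tested.

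Other genes of the receptor pathway in C3-like cells did not share one direction. Of 7 ERK feedback genes and targets 2 were called higher in the liver, Myc (68.1 against 12.6 CPM) and Id3 (99.6 against 42.7 CPM), while Spry2 stood at 198 against 398 CPM. Among 16 restraint genes 2 were called lower and 1 higher, with the inhibitory receptor gene Pdcd1 at 7.9 against 88.5 CPM, Ubash3b at 25.8 against 64.8 CPM and Dgka at 107 against 45.8 CPM. Of 13 NFAT and NF-κB targets 1 was called higher and 1 lower; Icos stood at 44.3 against 175 CPM, and Nfkb1 at 50.8 against 109 CPM. Of 18 receptor genes, Themis was called higher (33.7 against 11.1 CPM). The median log2 ratio of the ERK list was 0.80 against -0.06 over all genes. In C6-like cells 6 of 12 NFAT and NF-κB targets, 2 of 6 ERK genes, 1 of 11 restraint genes and none of 17 receptor genes were called higher, and none of these lists had a gene called lower. Over all cells the calls were 4 higher and 2 lower of 12 ERK genes, 4 and 0 of 16 NFAT and NF-κB targets, 2 and 4 of 18 restraint genes, and 1 and 3 of 18 receptor genes.

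Cells without handling transcripts were rare in the liver. Only 64 of 8075 hepatic cells (0.793%) had no UMI of Fos, Jun, Hspa1a and Hspa1b, against 1775 of 4351 thymic cells (40.8%). In these cells, with all classes pooled, the all-cell directions held: Egr1 had a hepatic to thymic log2 ratio of -1.35 (-2.81 to -0.22), Nr4a1 of -1.03 (-1.67 to -0.45) and Nr4a2 of 1.31 (0.45 to 2.06). Nr4a1 in the C3-like cells among them had a ratio of 1.06, with an interval of -0.18 to 2.23 that included 0. Too few C6-like cells were left to give a value.

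Within a class, cells were then divided into tertiles by their summed UMIs of the 23 handling genes after thinning, a split chosen after values were seen. In hepatic C6-like cells Egr1 was 62.4 CPM in the lowest and 469 CPM in the highest tertile, a log2 ratio of 2.91 (2.30 to 3.57), and Nr4a1 was 225 and 787 CPM (1.81, 1.47 to 2.16). Nr4a2 differed little there, at 72.4 and 95.2 CPM (0.40, -0.34 to 1.14). Both Egr1 and Nr4a1 in these cells thus went with the handling transcripts, whose part in the tissue difference was not tested. In hepatic C3-like cells the same comparison gave smaller ratios of 0.74 for Nr4a1 (279 to 467 CPM), 0.87 for Nr4a2 and 0.65 for Egr1 (-0.05 to 1.38). The ratios in C5-like cells were 0.69 for Nr4a1, 0.67 for Nr4a2 and 0.38 for Egr1 (-0.05 to 0.81), and in C4-like cells 0.38, 0.53 and 0.67.

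In the thymus only clusters 3, 4 and 5 were divided, so thymic C3-like, C6-like and cycling cells have no such ratio. In these clusters the ratios of Egr1 and Nr4a1 were all under those of hepatic C6-like cells, and the highest ratio of Nr4a2 was in cluster 5. The tertiles spanned unlike ranges, with medians of 8 and 17 handling UMIs in cluster 3 against 27 and 73 in hepatic C6-like cells. In cluster 3, where Nr4a1 was highest in the thymus, its ratio was 0.13 (-0.08 to 0.35) and that of Egr1 0.40. In cluster 4 the ratios were 0.42 and 1.10, and in cluster 5 they were 0.86 and 1.01, while Nr4a2 in cluster 5 went from 51.3 to 170 CPM (1.73). By immediate-early genes alone, the Nr4a1 ratio was 0.18 in cluster 3, 0.68 in cluster 4, 0.93 in cluster 5 and 1.99 in hepatic C6-like cells. In hepatic C3-like cells Cd5 was 52.5 CPM in the lowest and 25.2 CPM in the highest tertile (-1.06, -2.10 to -0.10), but with tertiles of the immediate-early genes alone it was 41.5 and 28.9 CPM and the interval included 0 (-0.52, -1.50 to 0.43). In C4-like cells the ratio of Cd5 was 0.41 (-0.40 to 1.24). The tertiles share a cell's fixed total of UMIs, so a cell with more handling transcripts has fewer left for all other genes.

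**Figure D3:**
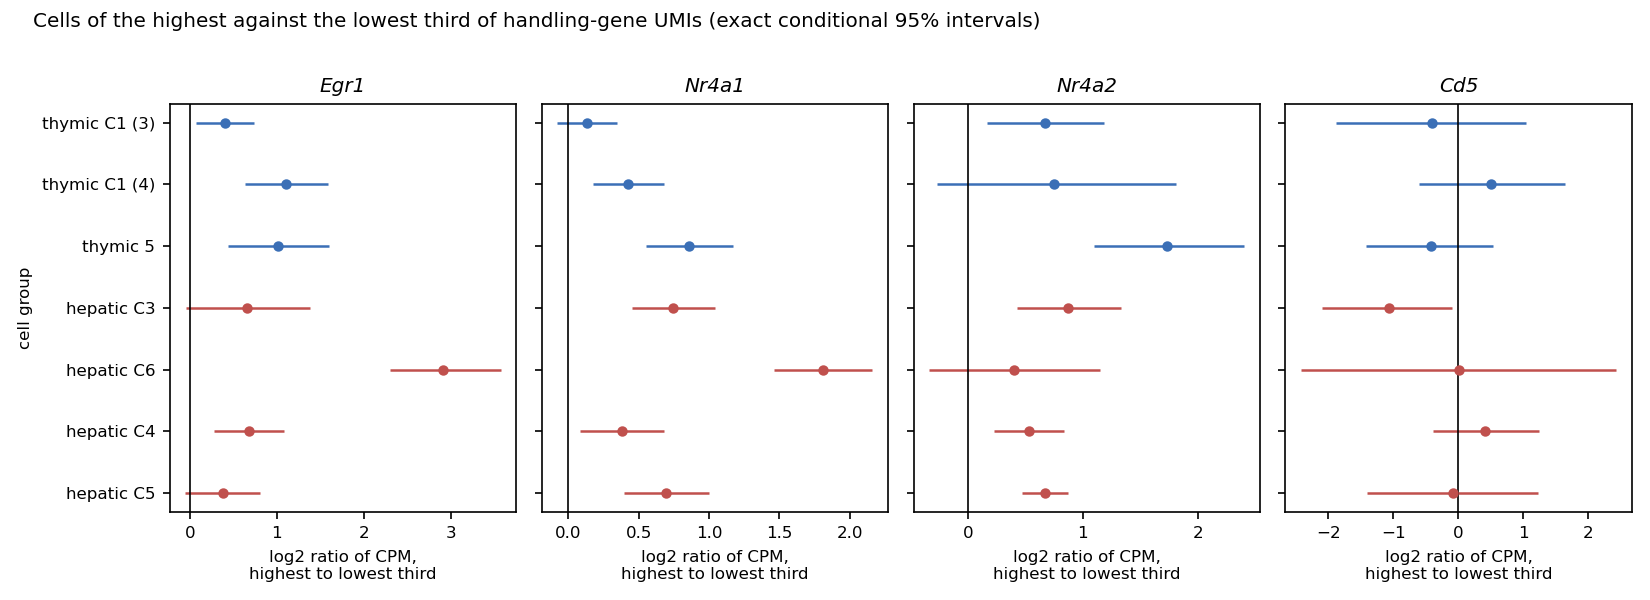
Log2 ratio of the level in the highest to that in the lowest tertile of cells by handling-gene UMIs, for Egr1, Nr4a1, Nr4a2 and Cd5 in 7 groups of cells (thymic blue, hepatic red), with exact 95% intervals. Egr1 and Nr4a1 in hepatic C6-like cells have the highest ratios, 2.91 and 1.81, Nr4a1 in thymic cluster 3 lies near 0, and Cd5 in hepatic C3-like cells lies below 0.

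Egr1 and Nr4a1 also went together in single cells of some classes. Among thinned hepatic C6-like cells, Nr4a1 was found in 45.7% (38.5 to 53.2) of cells with an Egr1 UMI and in 34.6% (30.8 to 38.5) of cells without, intervals that just touch. In thymic cluster 5 the shares were 48.9% (40.2 to 57.6) and 34.1% (30.9 to 37.3), and in cluster 3 they were 55.1% and 49.3% with overlapping intervals. Within the Nr4a family, Nr4a2 was found in 37.5% (33.1 to 42.1) of hepatic C5-like cells with Nr4a1 and 31.5% (29.7 to 33.4) of those without, and Nr4a3 in 7.25% (5.07 to 9.98) and 3.80% (3.05 to 4.69) of C4-like cells. Cd5 showed no such pairing beyond its intervals in the classes where it was clearly present: Nr4a1 was found in 38.5% of hepatic C3-like cells with Cd5 and 32.1% of those without, and in thymic cluster 5 in 25.8% and 36.7%. The Egr1 UMIs of hepatic C6-like cells lay in 275 of 790 cells, and 33 cells with at least 5 UMIs held 39.8% of them; for Nr4a1, 59 such cells held 39.5%.

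Across the 14 groups of tissue and cluster with at least 50 cells (6 thymic and 8 hepatic, each set sharing 1 library), the correlation of log2(CPM + 10) is given as a description. Egr1 and Nr4a1 had r = 0.714, and 0.842 and 0.654 over the thymic and hepatic groups alone. Egr2 and Nr4a1 had r = 0.923, but Egr2 rested on few UMIs. Both genes were highest in the C8-like cells, with 11 Egr2 UMIs, and thymic C3-like and C6-like cells had 1 and 0 Egr2 UMIs. Cd5 had r = 0.303 with Nr4a1 (-0.130 thymic, 0.517 hepatic), r = -0.272 with Egr1, and among thymic groups r = -0.763 with Nr4a3 and 0.776 with Nab2. The rapid genes did not all go together either. Over the 14 groups Nr4a2 had r = -0.07 with Nr4a1 and -0.322 with Egr1. Nr4a3 had r = -0.031 with Nr4a1 and 0.121 with Egr1, though 0.702 and 0.852 over the thymic groups alone. Over the hepatic groups Egr1 and Nr4a2 had r = -0.910. Nr4a1 and Hspa1a had r = -0.144 over the 14 groups, and -0.868 and -0.631 over the thymic and hepatic groups alone. In the thymus Hspa1a rested on 21 UMIs in C3-like and 35 in C6-like cells, with no more than 2 in any other group. The thymic value therefore mainly sets these classes apart from a floor. With Hspa1a over the 14 groups, Nr4a2 had r = 0.642, Nab2 0.313, Egr1 -0.01, Egr2 -0.195, Nr4a3 -0.43 and Cd5 -0.461.

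**Figure D4:**
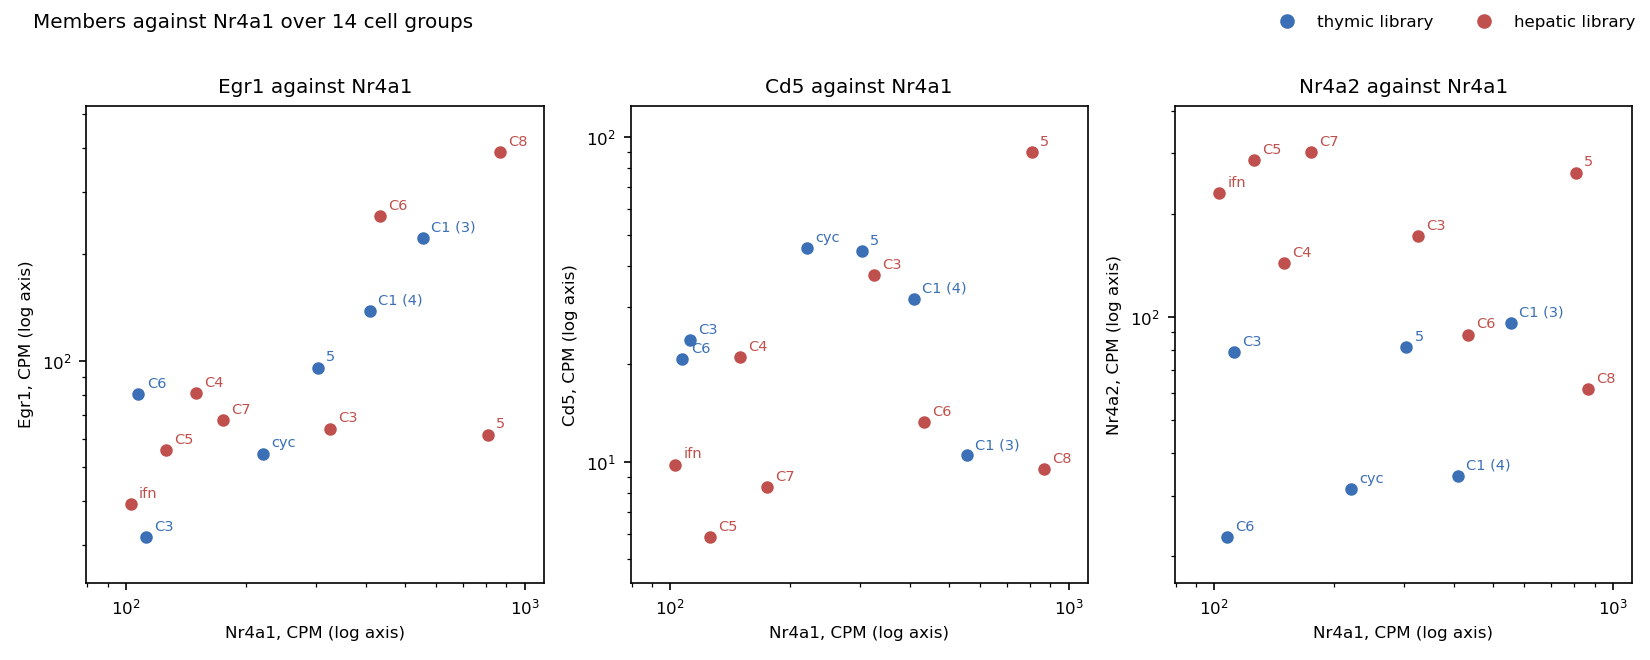
Egr1, Cd5 and Nr4a2 against Nr4a1, each in CPM on log axes, for the 14 groups of tissue and cluster with at least 50 cells (thymic blue, hepatic red). Egr1 goes up with Nr4a1, r = 0.714, while Cd5 spreads over its range at like levels of Nr4a1, r = 0.303, and Nr4a2 has r = -0.07 with Nr4a1.

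The 4362 genes with enough signal in these groups were ranked by the likeness of their pattern to each member. Slamf6 (0.901), Smc4 (0.862), Lef1 (0.858) and Tcof1 (0.858) were most like Cd5, and Smc4 and Lef1 were among the markers used to name C3-like cells. Pip4k2a (0.935) and Nr4a1 (0.923) led for Egr2, Rhog (0.864) for Nr4a1, Itpkb (0.927), which encodes an inositol trisphosphate kinase, for Nr4a2, Stx5a (0.932) for Nr4a3, Sdc4 (0.883) for Egr1 and Eif3j1 (0.897) for Nab2.

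Finer clustering divided some of these groups further. At resolution 0.8, the 196 thymic C3-like cells went mainly to a cluster led by Zbtb16, Izumo1r and Icos (110 cells) and to the C3-like cluster (76 cells). Nr4a1 stood at 122 CPM in the thymic cells of the former and at 85.4 CPM in the 77 thymic cells then C3-like, against 310 CPM in hepatic C3-like cells, so both subsets of the thymic class were below the hepatic class. A further cluster, led by Hba-a1, Cd200 and C1ql3, also took in 9 of the thymic C3-like cells, and in it Nr4a2 reached 322 CPM in 150 thymic cells and 520 CPM in 68 hepatic cells, of which the hepatic level was above that of every other group at that resolution beyond its interval. Nr4a1 stood there at 332 and 1046 CPM and Cd5 at 32.0 and 82.7 CPM. Hemoglobin genes summed to 2119 CPM in the thymic and 5.91 CPM in the hepatic cells of this cluster, summed immediate-early genes were 7848 and 14701 CPM, and the part of either in these levels was not tested.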

How the data were processed

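The authors deposited, per the labels, gene-by-barcode matrices of raw UMI counts for 1 hepatic and 1 thymic library; the submitters' processing notes name Cell Ranger, Seurat 3.0 and mm10, and the annotation release was not given in the sources used here. The thymic matrix ended in 2 stray text lines, which were left out. No column was left unmapped.

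Cells with 800 to 4000 genes and at most 6% mitochondrial UMIs were clustered jointly (R 4.3.3, Seurat 5.3.0: log normalisation, 2000 variable genes, 30 principal components, resolution 0.6), with the members, the 64 pathway and 23 handling genes taken out of the variable genes. A cluster was named where a fixed marker list averaged at least 0.5 (log2 with 10 CPM added) above all other cells, led the next list by 0.2 and had at least 3 detected markers. The name was withheld where another list had more markers among the 10 leading genes of the cluster. A cluster of 17 B-like cells got no level. Doublets were not removed in the reported values; an alternative left out the highest Scrublet scores (600 hepatic and 165 thymic barcodes).

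UMIs were summed per library and cluster and divided by the summed total (Python 3.11.15, scipy 1.17.1, scanpy 1.11.5). Intervals are exact Poisson for levels, exact conditional binomial for ratios and Clopper-Pearson for shares, at 95%. PCR duplicates are removed by UMIs, and the intervals cover counting error only. For shares each cell was thinned to 1500 UMIs, and shallower cells were left out. Scripts were tested on simulated data.

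The members and all gene lists were chosen with earlier results of these data known. Genes named in the text are the members, the 3 genes of each list with the largest ratio in the C3-like, thymic stage and C4-like to C5-like comparisons, and, for each member, leading genes of the 4 most like it (not all 28 are named, and 1 gene is not reported here); B-cell, Hspa1a, Fos, Junb and marker genes are named as checks. The split into tertiles of handling-gene UMIs and the comparison of the C1-like clusters were added after values were seen, as was the setting without shared barcodes. Promoters are from the RefSeq table of GRCm38.p6, the patch level of the mm10 assembly. The alternatives were other clusterings, filters, totals, thinning depths and call thresholds.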

Additional observations from a re-analysis of the deposited data

How the results depend on the processing

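No paired analysis was possible because each tissue has 1 library and no fit across samples was made; for the same reason no replicate could be left out. Of 897 recomputed member log2 ratios, 842 stayed within the counting interval of the reported value and 55 moved beyond it, and none of the called ratios among them changed sign. The ranges were 1.31 to 1.83 for Nr4a2 over all cells, 1.06 to 2.03 for Nr4a1 and 0.99 to 1.36 for Nr4a2 between hepatic and thymic C3-like cells, and 1.50 to 1.70 for Egr1, 1.83 to 2.15 for Nr4a1 and 1.79 to 2.92 for Nr4a2 in C6-like cells. From thymic C1-like to C3-like cells they were -2.79 to -2.34 for Egr1 and -2.63 to -1.99 for Nr4a1. Ratios from C1-like cells to the unnamed thymic cluster, none of them called in the reported values, did change sign. They ranged from -0.95 to 0.74 for Egr1, -0.67 to 0.48 for Nr4a1, -0.89 to 1.06 for Nr4a3 and -1.57 to 1.11 for Cd5. These ranges include the setting with each library clustered alone, where the unnamed cluster held mostly cluster 3 cells. For comparison, the reported ratios of cluster 3 to cluster 4 were 0.69 for Egr1, 0.44 for Nr4a1, 0.86 for Nr4a3 and -1.60 for Cd5. The ratios between the C1-like clusters were not recomputed. Between C4-like and C5-like cells the count of members called higher went from 0 to 1 (Cd5) at resolution 0.8, with 3000 variable genes, with members and lists kept among the variable genes, with each library clustered alone and without mitochondrial and ribosomal-protein genes; the count called lower went from 0 to 1 (Nr4a2) at resolution 0.8, without the highest Scrublet scores, with each library clustered alone and after thinning to 1500 UMIs. With 50 CPM added, 1 member (Nr4a1) instead of 2 was called higher between C3-like cells. In cells with no UMI of Fos, Jun, Hspa1a and Hspa1b, 1 member (Egr1) was called lower over all cells instead of 0. With each library clustered alone, 1 member (Nr4a2) instead of 0 was called higher between the unnamed thymic cluster and C1-like cells; 1082 of the 1173 cells of that unnamed cluster were cluster 3 cells of the joint clustering, so other cells were compared. The cause of the other changes was not tested. Some classes were lacking when libraries were clustered alone, and the cells with no UMI of Fos, Jun, Hspa1a and Hspa1b gave no C6-like value. Shares of cells with a UMI moved with depth in 156 of 226 values, and the counts of members called stayed the same in 198 of 210. Low counts limited Egr2, Egr3 and Cd5.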
